A study of Mus musculus with 1 sample.

Results

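The BCL2 family decides whether the outer mitochondrial membrane of a cell stays sealed. Here 10 of its genes were read in c-kit+ BM cells, *Mcl1*, *Bcl2l1*, *Bcl2*, *Bcl2a1b* and *Bcl2a1d* on the survival side, *Bak1*, *Bid*, *Bad* and *Bcl2l11* on the death side, and *Bnip3l*, a mitochondrial relative that works mainly in the removal of mitochondria. They were taken as a list of names and found by symbol in the GENCODE M21 annotation, and all 10 are among the 54532 genes of the deposited table. The values come from 1 RNA-seq library, that of cells sorted as Lin- c-kit+ Sca1- from Ctrl mice of the C57BL/6 strain with wild-type genotype. The age and the number of the mice behind the library are not given in the sources used here, nor is it stated whether they carried the floxed *Gadd45g* allele or *Vav-Cre*, a Cre active in blood-forming cells, that the study used for deletion. A library of MPN mice was not analysed here. The values are therefore levels in a single group, without a fold change, a test or a spread over animals.

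Pro-survival members of the family hold death-side members in a groove on their surface. When the BH3-only proteins, such as the products of *Bcl2l11*, *Bid* and *Bad*, fill that groove or act on the effectors BAX and BAK directly, the effectors form pores, cytochrome c leaves the mitochondria and the caspases are switched on. In blood formation MCL1 is known to be needed by stem and progenitor cells, BCL-XL (the main product of *Bcl2l1*) by late erythroid cells and platelets, A1 (the product of the *Bcl2a1* genes) is induced in activated myeloid cells, and NIX (the product of *Bnip3l*) clears mitochondria from maturing red cells.

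The label of the library names c-kit+ cells, and 5 of 6 genes chosen as stem and progenitor markers reached 1 FPKM, the unit of the deposited levels, in which the fragments of a gene are divided by its length and by the size of the library. *Kit* itself had 7.17 FPKM. All 9 mature neutrophil markers and all 6 erythroid markers were also read, with medians of 2831 and 3468 FPKM and with 12.4% and 11.2% of the summed FPKM of the library. All 6 B cell, 5 T cell and 5 macrophage markers reached 1 FPKM as well, with 1.56%, 0.00829% and 0.0524% of the sum. The Lin- c-kit+ gate, which leaves out cells with mature lineage markers on their surface, is meant to remove mature neutrophils, red cell precursors and B cells. Whether these reads came from cells that passed the gate was not tested. In a bulk library, more cells of a type and more RNA per cell cannot be told apart, and the levels below are those of all cells in the library.

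The short stretch through which these proteins meet is the BH3 motif. Its core was looked for in the coding sequence of each gene as a leucine codon, any 3 codons, a glycine codon and an aspartate codon in frame. Of the 10 genes, 6 hold this core, and *Bad* holds a variant with a serine codon in the place of glycine. The coding stretches are shown because they are the part that the survival and death genes have in common. Each runs over 45 bases from 5′ to 3′, with the 18 bases of the core in capitals, and is taken from the GENCODE M21 transcript with the longest coding sequence (GRCm38).

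*Mcl1*: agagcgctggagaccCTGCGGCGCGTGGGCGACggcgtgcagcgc
*Bcl2l1*: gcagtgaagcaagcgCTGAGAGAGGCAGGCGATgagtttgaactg
*Bcl2*: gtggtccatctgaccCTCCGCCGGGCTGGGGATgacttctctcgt
*Bak1*: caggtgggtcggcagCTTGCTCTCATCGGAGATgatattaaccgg
*Bid*: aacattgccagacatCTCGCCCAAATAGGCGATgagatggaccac
*Bcl2l11*: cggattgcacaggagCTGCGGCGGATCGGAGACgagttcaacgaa
*Bad*: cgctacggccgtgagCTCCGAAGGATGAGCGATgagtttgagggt

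The core starts at codon 194 of 331 in *Mcl1*, which has the longest coding sequence of the 10 genes. It starts at codon 90 of 233 in *Bcl2l1*, 94 of 236 in *Bcl2*, 76 of 209 in *Bak1* and 90 of 195 in *Bid*. In *Bcl2l11* and *Bad* it lies late, at codon 150 of 196 and 151 of 204. No core of either kind was found in *Bcl2a1b*, *Bcl2a1d* or *Bnip3l*, which says only that these codons are not there in that order. The letters are not particular to the family, since 15.2% of the 10274 coding sequences of detected genes hold the glycine form and 17.5% the serine form. Among the other 16 family genes examined, 7 hold the glycine form, *Bax*, *Bok*, *Bik*, *Hrk*, *Pmaip1*, *Bcl2l14* and *Bcl2l15*.

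All 10 genes reached 1 FPKM in the Ctrl library. This level was reached by 22.2% of all genes listed and by 46.8% of protein-coding genes. Since the genes were chosen with earlier results of these data known, the count is a description. Their levels ran over more than 2 orders of magnitude, from 1.24 to 248 FPKM, with a median of 14.2 FPKM. The median was 1.77 FPKM over all genes above 0 and 8.66 FPKM over the protein-coding genes at 1 FPKM or more.

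**Figure D1:**
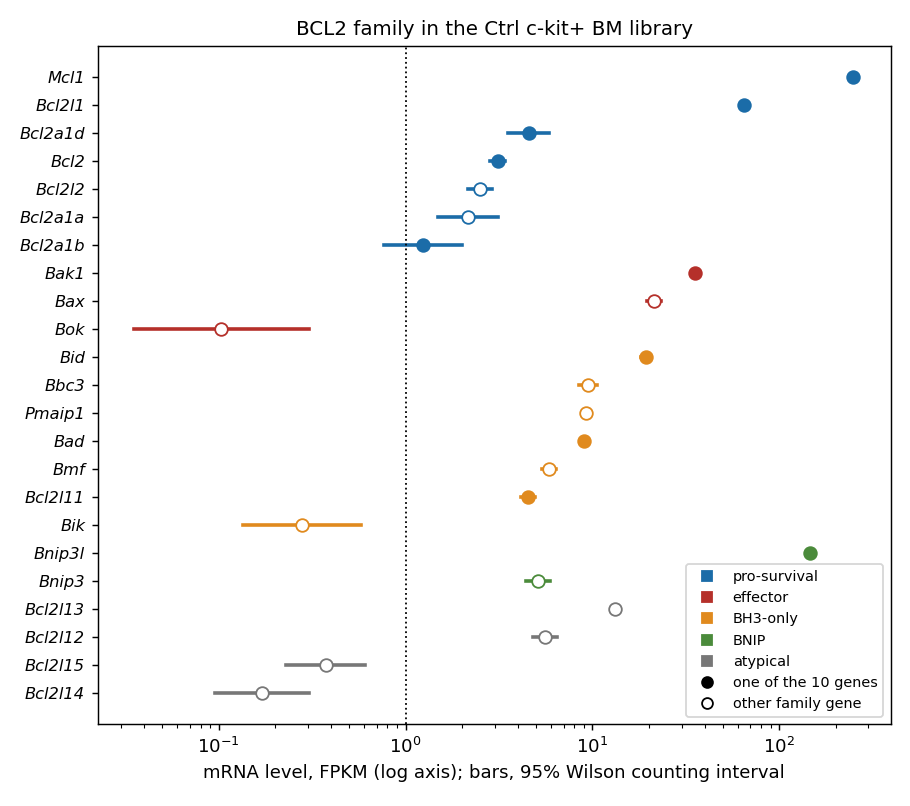
mRNA levels of the BCL2 family genes above 0 in the Ctrl library, in FPKM on a log axis, with filled points for the 10 genes, open points for other family genes, colours for the role, bars for the 95% Wilson counting interval (none for *Bad* and *Pmaip1*) and a dotted line at 1 FPKM. *Mcl1* at 248 FPKM and *Bnip3l* at 145 FPKM stand above every other family gene, and *Bcl2l10*, *Bcl2a1c* and *Hrk*, listed at 0, are not drawn.

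Among the pro-survival genes *Mcl1* was the most abundant. *Mcl1* (ENSMUSG00000038612, chr3:95658788-95663176, forward strand) stood at 248 FPKM. This level rests on 13389 fragments, a number recovered from the FPKM value and the exon length, and its 95% Wilson interval was 244 to 252 FPKM. Such intervals cover counting error only. Coordinates are those of GRCm38, from the first to the last base of the gene. *Mcl1* was number 176 among the 54532 genes listed by level, and lay above 98.5% of the protein-coding genes at 1 FPKM or more. It made up 77.0% of the summed FPKM of the 5 pro-survival genes.

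*Bcl2l1* (ENSMUSG00000007659, chr2:152780668-152831728, reverse strand) had 65.0 FPKM from 4706 fragments (interval, 63.2 to 66.9). *Mcl1* was 3.82 times this level (exact interval of the ratio, 3.69 to 3.95), and 2.85 times in fragments not divided by length. With the length of the longest transcript in place of all exons, *Mcl1* and *Bcl2l1* had 248 and 116 FPKM. *Bcl2l1* was in turn 20.8 times *Bcl2* (interval, 18.9 to 23.0). The annotation gives *Bcl2l1* 9 transcripts, 8 of them coding, and an FPKM value per gene does not separate its long survival form from its short death form.

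*Bcl2* (ENSMUSG00000057329, chr1:106538178-106714274, reverse strand), the founding gene of the family, had 3.12 FPKM from 451 fragments (interval, 2.85 to 3.42), which was higher than 20.2% of the detected protein-coding genes. *Mcl1* was 79.5 times this level (interval, 72.4 to 87.5). The closest relative by level was *Bcl2l2*, which encodes the pro-survival protein BCL-W, at 2.50 FPKM (interval, 2.16 to 2.90). The intervals of these levels overlap slightly, while the ratio of *Bcl2* to *Bcl2l2*, 1.25, had an interval just above 1 (1.047 to 1.495). In fragments not divided by length the ratio was 2.56.

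*Bcl2a1d* (ENSMUSG00000099974, chr9:88723285-88731914, reverse strand) had 4.55 FPKM from 62 fragments (interval, 3.55 to 5.83). *Bcl2a1b* (ENSMUSG00000089929, chr9:89199209-89207827, forward strand) had 1.24 FPKM from 16 fragments (interval, 0.764 to 2.02). The lower bound of *Bcl2a1b* lies under 1 FPKM, so its place above that level is within counting error. *Bcl2a1a*, which lies between them at chr9:88956900-88962419, had 2.17 FPKM from 28 fragments (interval, 1.499 to 3.13). The 3 paralogs together had 7.96 FPKM from 106 fragments, still less than *Bad* alone.

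The levels of the *Bcl2a1* paralogs are uncertain beyond counting, because the genes are near copies. Over the 516 coding bases, *Bcl2a1b* and *Bcl2a1d* differ at 6 positions and are 98.8% identical. *Bcl2a1a* differs from *Bcl2a1d* at 7 positions and from *Bcl2a1b* at 11. The first 60 coding bases are shown because they hold at least as many of these differences as any other stretch of that length. The letters that differ among the 3 genes are in capitals.

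*Bcl2a1a*: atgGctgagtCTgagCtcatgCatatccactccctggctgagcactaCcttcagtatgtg
*Bcl2a1b*: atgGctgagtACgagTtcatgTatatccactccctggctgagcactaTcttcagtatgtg
*Bcl2a1d*: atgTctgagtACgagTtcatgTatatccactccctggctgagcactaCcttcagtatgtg

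Counted from the first base of the coding sequence, *Bcl2a1b* and *Bcl2a1d* differ here by G4T and T48C, with the base of *Bcl2a1b* first. The other differences between these genes are A94C, G312A, C381G and T490A. Of all windows of 50 bases in the *Bcl2a1d* transcript, 20.5% are found in neither of the other transcripts, and of windows of 150 bases, 69.7%. The shares were 42.4% and 85.8% for *Bcl2a1b*. The read length, and how reads that fit several genes were counted, are not given in the sources used here. In addition, 401 of the 817 exon bases of *Bcl2a1b*, or 49.1%, lie in exons of *Gm29094* on the same strand, which is listed at 0. How many fragments these genes lost or gained in counting was not tested.

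**Figure D2:**
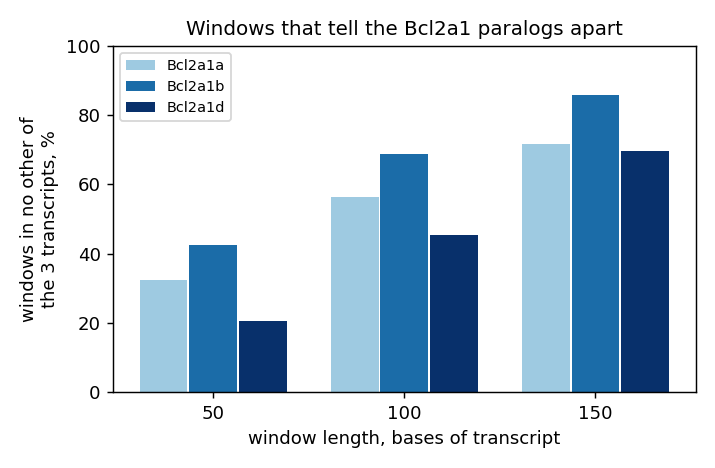
Share of the windows of a *Bcl2a1* transcript, in percent, that occur in neither of the other 2 transcripts, for windows of 50, 100 and 150 bases. At 50 bases the bars reach 32.3% for *Bcl2a1a*, 42.4% for *Bcl2a1b* and 20.5% for *Bcl2a1d*, and at each of the 3 lengths *Bcl2a1d* has the lowest bar.

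Of the effectors, which form the pores in the outer membrane, *Bak1* is one of the 10 genes. *Bak1* (ENSMUSG00000057789, chr17:27019810-27029009, reverse strand) had 35.3 FPKM from 1342 fragments (interval, 33.5 to 37.3). *Bax*, the other effector that most cells use, had 21.3 FPKM from 529 fragments (interval, 19.5 to 23.2). *Bak1* was thus 1.66 times *Bax* (interval, 1.501 to 1.84, counting error only). The ratio depends on the length used, and in fragments not divided by length it was 2.54. The longest transcript has 2387 of the 2407 exon bases of *Bak1* and 1100 of the 1576 of *Bax*. These lengths would lower the ratio to below the interval of 1.501 to 1.84. *Bok*, another relative of the effectors, had 0.103 FPKM from 3 fragments. Antisense to *Bak1* lies *Ggnbp1*, at 0.338 FPKM, which covers 437 of its 2407 exon bases.

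Of the BH3-only genes, *Bid* was the highest. *Bid* (ENSMUSG00000004446, chr6:120891930-120916853, reverse strand), whose product is cleaved by caspase-8 and carries the signal of death receptors to mitochondria, had 19.3 FPKM from 1079 fragments (interval, 18.1 to 20.4), and was higher than 72.9% of the detected protein-coding genes. Its end overlaps another family gene, since 628 of its 3550 exon bases, or 17.7%, lie opposite exons of *Bcl2l13*. *Bcl2l13*, which encodes a mitochondrial receptor for mitophagy, had 13.2 FPKM. The strand setting of the counting is not given, and fragments in this overlap cannot be assigned to one of the genes from these values.

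*Bad* (ENSMUSG00000024959, chr19:6941861-6951899, forward strand), whose product is held by 14-3-3 proteins when it is phosphorylated, for example by AKT, had 9.06 FPKM, a level above 51.5% of the detected protein-coding genes. It is the only 1 of the 10 genes whose FPKM and exon length did not give a whole number of fragments, so no interval is given for it. On chromosome 19 only 48.9% of the genes above 0 gave a whole number, against 99.9% outside chromosomes 17, 18 and 19. Of its 2558 exon bases, 524 lie opposite exons of *Gpr137*, at 8.17 FPKM.

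*Bcl2l11* (ENSMUSG00000027381, chr2:128126038-128162547, forward strand), which encodes BIM, a binder of all pro-survival members, had 4.51 FPKM from 572 fragments (interval, 4.16 to 4.90), and *Bid* was 4.27 times this level (interval, 3.85 to 4.73). The other BH3-only genes fell into a middle group and a group near 0. *Bbc3*, which encodes the p53 target PUMA, had 9.49 FPKM (interval, 8.50 to 10.6), and *Pmaip1*, which encodes NOXA, had 9.27 FPKM. *Bmf* had 5.87 FPKM (interval, 5.37 to 6.42). The place of *Bcl2l11* below *Bbc3* and *Bmf* depends on gene length. In fragments not divided by length, *Bcl2l11* was 1.80 times *Bbc3* and 1.175 times *Bmf*. *Bik* had 0.279 FPKM, and *Hrk* is listed at 0, which allows up to 0.0335 FPKM, the level that 3 fragments would give.

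*Bnip3l* (ENSMUSG00000022051, chr14:66985239-67008877, reverse strand) ranked next to *Mcl1* among the 10 genes, at 145 FPKM from 8842 fragments (interval, 142 to 148). It lay above 97.0% of the detected protein-coding genes. Its nearest relative *Bnip3*, a receptor for mitophagy known for its rise in low oxygen, had 5.12 FPKM (interval, 4.43 to 5.92). *Bnip3l* was 28.4 times this level (interval, 24.5 to 33.0). The 6 erythroid markers, the lineage in which NIX is best known, summed to 11.2% of the FPKM of the library, and their part in the level of *Bnip3l* was not tested.

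In order of level the 10 genes were *Mcl1*, *Bnip3l*, *Bcl2l1*, *Bak1*, *Bid*, *Bad*, *Bcl2a1d*, *Bcl2l11*, *Bcl2* and *Bcl2a1b*. Of the 9 pairs of neighbours, only *Bcl2a1d* and *Bcl2l11* had intervals that overlap, with a ratio of 1.01, and the 2 pairs that hold *Bad* have no interval on one side. The steps between the other neighbours were from 1.45 to 2.52 times. With 1 library, none of these steps can be set against the variation from mouse to mouse.

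**Figure D3:**
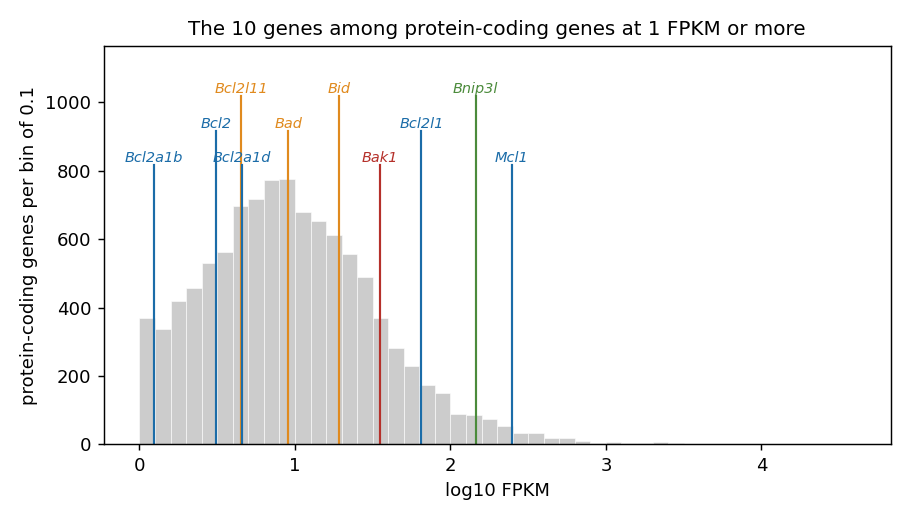
Number of protein-coding genes at 1 FPKM or more in bins of 0.1 on a log10 FPKM axis, with a line at the level of each of the 10 genes, coloured by role as in the plot of family levels. *Mcl1* and *Bnip3l* lie in the right tail, above 98.5% and 97.0% of these genes, *Bad* near the middle at 51.5%, and *Bcl2* and *Bcl2a1b* at 20.2% and 3.31%.

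The order in the lower part depends on how gene length enters. The exons of *Bcl2* and *Bcl2l11* cover 9157 and 8029 bases, and those of *Bcl2a1b* and *Bcl2a1d* only 817 and 863 bases. Without division by length *Bcl2l11* moved from rank 8 to 6 and *Bcl2* from 9 to 7, with 36.2 and 28.6 CPM (fragments scaled to the size of the library only), while *Bad* fell to rank 8 and *Bcl2a1d* to 9. With the longest transcript in place of all exons, only *Bcl2a1d* and *Bcl2l11* changed places. The 5 highest genes kept their order in both, but ratios between genes could move beyond their counting intervals. In fragments not divided by length, *Mcl1* was 29.7 times and *Bcl2l1* 10.4 times *Bcl2*. *Bid* was 1.89 times *Bcl2l11*, and *Bnip3l* 48.3 times *Bnip3*.

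**Figure D4:**
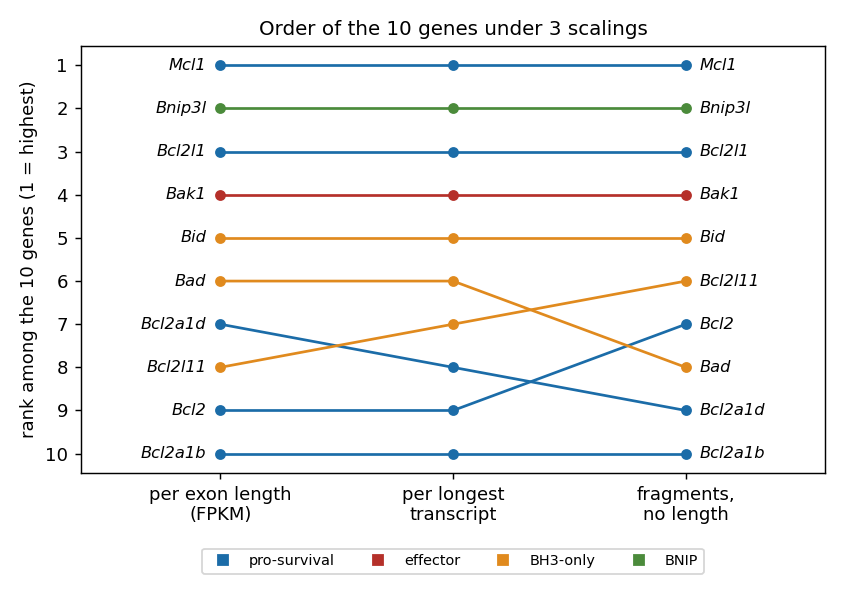
Rank of the 10 genes, 1 for the highest, by FPKM (left), by fragments per length of the longest transcript (middle) and by fragments with no division by length (right), coloured by role. The lines of the 5 highest genes and of *Bcl2a1b* are flat, and those of *Bad*, *Bcl2a1d*, *Bcl2l11* and *Bcl2* cross.

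The 5 pro-survival genes summed to 322 FPKM and the 4 death-side genes *Bak1*, *Bid*, *Bad* and *Bcl2l11* to 68.2 FPKM, a ratio of 4.73 (counting interval, 4.54 to 4.91, with *Bad* treated as a count). This ratio rests on *Mcl1*, and without it the ratio was 1.09. With *Bax* and the other family genes of these roles added, it was 2.86. The sums are of mRNA, and the amounts of the proteins, of which MCL1 is known to be short-lived, were not measured in this library.

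Of the 16 family genes outside the list, 9 were at 1 FPKM or more. Their median was 2.33 FPKM, and *Bax* at 21.3 FPKM was the highest. *Bcl2l10*, *Bcl2a1c* and *Hrk* are listed at 0. For *Bcl2l10* and *Bcl2a1c*, both pro-survival genes, 3 fragments would give 0.156 and 0.428 FPKM. Among the atypical members *Bcl2l13* was the highest, followed by *Bcl2l12* with 5.58 FPKM, while *Bcl2l14* and *Bcl2l15* had 0.170 and 0.374 FPKM.

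The genes around the family were read from lists written together with the 10 genes. Upstream of *Bid*, 8 of 9 genes of the death receptor arm were at 1 FPKM or more, and the median was 8.46 FPKM. The receptor gene *Tnfrsf1a* had the highest level, 63.1 FPKM (interval, 60.7 to 65.6), and *Fas* had 9.96 FPKM. *Casp8*, whose product cleaves BID, had 22.0 FPKM (interval, 20.7 to 23.4), and *Cflar*, which encodes its inhibitor FLIP, 8.38 FPKM (interval, 7.99 to 8.79). Their order reversed without division by length, at 63.6 CPM for *Casp8* and 106 CPM for *Cflar*. *Tnfrsf10b*, the receptor of TRAIL, had 0.128 FPKM from 11 fragments.

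Downstream of the pores, 13 of 14 genes of caspases and the apoptosome were at 1 FPKM or more, and the median was 14.2 FPKM. *Birc5*, which encodes survivin and is best known for its part in cell division, was the highest at 59.8 FPKM. *Cycs*, the cytochrome c gene, had 23.9 FPKM, and *Apaf1* and *Casp9*, whose products assemble on it, had 15.4 and 9.0 FPKM. *Xiap*, a direct inhibitor of caspases, had 9.91 FPKM. The exception was *Diablo*, whose product counters the inhibitors, at 0.976 FPKM (interval, 0.799 to 1.19). Of its 6166 exon bases, 1193 are shared with *Gm49027* on the same strand and 1326 lie opposite *B3gnt4*, so its level may depend on how overlaps were counted, which was not tested. *Htra2*, with the same role, had 22.0 FPKM. Of its 2946 exon bases, 753 lie opposite *Aup1*, at 34.6 FPKM, and 535 opposite *Loxl3*, at 0.743 FPKM. The level of *Htra2* may therefore depend on the counting of overlaps too, which was not tested.

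On the side of mitophagy, where *Bnip3l* acts, 11 of 12 genes were at 1 FPKM or more, and the median was 27.7 FPKM. *Gabarap*, a member of the ATG8 family that NIX binds to bring mitochondria to the autophagosome, had 160 FPKM (interval, 155 to 165). This was above *Bnip3l* in FPKM, but not without division by length, at 295 against 560 CPM. The related *Gabarapl2* and *Map1lc3b* had 46.9 and 43.2 FPKM, and *Gabarapl1* and *Map1lc3a* 17.3 and 11.5 FPKM. Of the receptor genes *Fkbp8* had 46.8 FPKM and *Fundc1* 10.2 FPKM. *Pink1*, of the damage pathway, had 52.9 FPKM.

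**Figure D5:**
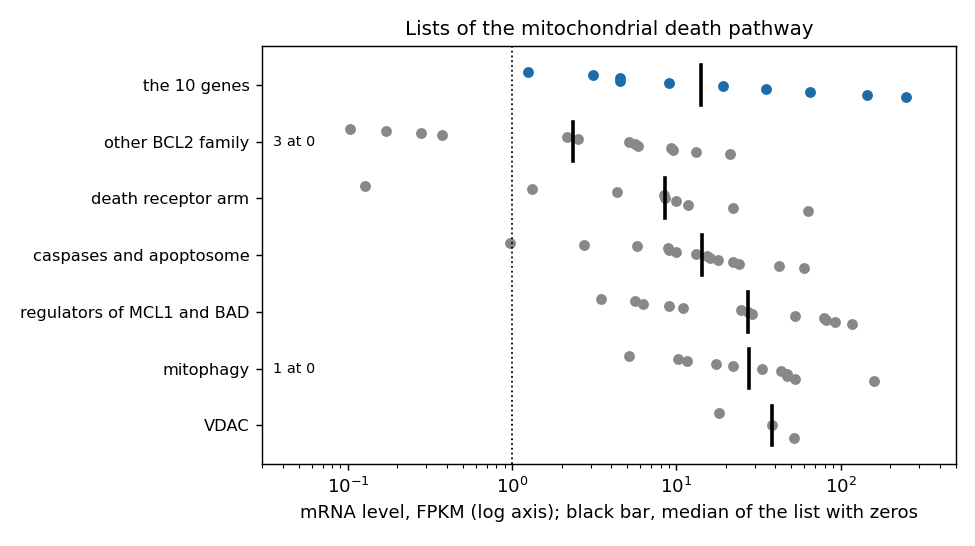
Levels of the 10 genes and of 6 further lists in FPKM on a log axis, 1 point a gene, with a black bar at the median of each list (genes at 0 included) and a dotted line at 1 FPKM. The medians run from 2.33 FPKM for the other BCL2 family genes to 38.3 FPKM for the 3 VDAC genes, and 3 family genes are at 0.

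The promoters and transcript ends of the 10 genes differ in ways that the list did not use. The RefSeq table of GRCm38.p6 gave 13 promoter windows of 300 bases for 9 of the 10 genes, and *Bnip3l* had no entry. In 9 of the 13 windows the CpG content was at least 0.6 of that expected from the base composition, as it was in 35.8% of the 32851 windows of all genes. The highest values among the genes with 1 window were 1.02, for both *Mcl1* and *Bcl2*, and the lowest were 0.247 for *Bcl2a1b* and 0.275 for *Bcl2a1d*. *Bak1* had 0.435. The 3 windows of *Bcl2l1* were at 0.0558, 0.612 and 1.07.

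The letters GAGGAA, the core bound by PU.1, were searched for on both strands and found in 6 of the 13 windows, each of another gene, 4 times for *Bcl2a1b* and 2 times for *Bcl2a1d*, while 28.3% of all windows hold them. AGATAA, a form of the GATA motif, was found in 1 window, of *Bcl2l1*, and in 11.2% of all windows. TTCNNNGAA, the STAT motif, was found in none of the 13 windows and in 8.30% of all. These are matches of letters within short windows, and no binding was measured.

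After the stop codon, the pentamer ATTTA, known from short-lived mRNAs, was counted in the transcript with the longest coding sequence. *Mcl1* held it 8 times in 2353 bases, or 3.40 per kilobase, and *Bcl2* 15 times in 5086 bases, or 2.95 per kilobase. *Bcl2a1b* and *Bcl2a1d* each held it once in 147 and 149 bases. *Bak1*, *Bid* and *Bad* held none, as did 31.6% of the 9612 detected protein-coding genes with at least 100 bases there, whose median was 1.31 per kilobase. *Bnip3l* with 1.61, *Bcl2l11* with 1.42 and *Bcl2l1* with 0.679 per kilobase lay nearer that median.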

How the data were processed

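RNA of sorted c-kit+ BM cells of Ctrl mice was sequenced on an Illumina HiSeq instrument (1 library). The deposited values are FPKM, which the authors made from fragments per gene. The submitters' processing notes name HISAT2 2.0.5, featureCounts 1.5.0-p3 and mm10, without their settings. Symbols, coordinates and exon lengths were taken from GENCODE M21 (54495 of 54532 identifiers matched). FPKM times the exon length was a whole multiple of 1 step, within 0.01, for 96.4% of genes above 0, and the multiples were taken as recovered fragments (tested on simulated data). The step stands for 15783891 fragments, and the whole multiples sum to 15899824. Why these totals differ was not tested. Levels have 95% Wilson intervals, ratios exact binomial ones, and the ratio of sums an approximate Poisson one. For a gene at 0 the limit is 3 fragments. The rule named all 10 genes, the top and bottom of each list and relatives of the same role. Further list genes were picked by function after values were seen. The values of some list genes are not reported here. The genes and lists were chosen with earlier results of these data known, and the ATTTA count was added after values were seen. Intervals were computed with scipy 1.17.1 under Python 3.11.15, tables with pandas 2.3.3 and plots with matplotlib 3.10.9.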

Additional observations from a re-analysis of the deposited data

How the results depend on the processing

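No paired analysis was possible because only 1 library was read. All 10 genes also reached 0.1 FPKM and 10 recovered fragments, and 5 reached 10 FPKM. The shares of all genes at these other thresholds were not computed, so these counts are descriptions only. The median of 14.2 FPKM was 14.4 without mitochondrial genes and 15.4 without the 10 most abundant genes in the total, a factor of 1.09 common to all genes. It was 33.0 as TPM and 52.3 as CPM (fragments scaled to library size only), which are other units. The pro-survival to death-side ratio of 4.73 was the same without those genes in the total, 4.64 without *Bcl2a1b* and *Bcl2a1d*, 5.54 in fragments not divided by length, 2.86 with the other family genes added and 1.09 without *Mcl1*. The last setting, and the order in CPM, were added after the values were seen. Of 9 neighbouring pairs 8 kept their order with the longest transcript and 8 in CPM. Of the 10 genes depth limits *Bcl2a1b* most, with 16 fragments, and the relatives *Bok* and *Bik* rest on 3 and 7.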

Other observations

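The genes whose products hold or degrade members of the family were all read, with 13 of 13 at 1 FPKM or more and a median of 27.3 FPKM. The highest levels were those of 14-3-3 genes, whose proteins bind phosphorylated BAD, led by *Ywhae* at 117 FPKM (95% Wilson interval, 114 to 121) and *Ywhaz* at 92.1 FPKM (interval, 89.8 to 94.4). Of the same family, *Ywhag* at 24.8 FPKM and *Sfn* at 9.03 FPKM lay below the dynein light chain genes in this unit. The dynein light chain genes *Dynll1* and *Dynll2*, whose products hold BIM and BMF, had 28.9 and 27.3 FPKM. Their intervals of 27.6 to 30.3 and 25.8 to 28.9 overlap. Without division by length *Dynll1* stood higher than *Dynll2*, at 112 against 74.6 CPM, and *Ywhag* at 136 CPM lay above both. Of the genes that set the life of MCL1, the ubiquitin ligase genes *Huwe1*, *Btrc* and *Fbxw7* had 11, 5.60 and 3.46 FPKM, and the deubiquitinase gene *Usp9x* had 6.23 FPKM.

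Of the VDAC genes, which encode channels of the outer membrane, *Vdac1* had 51.7 FPKM, *Vdac2* 38.3 FPKM and *Vdac3* 18.2 FPKM. None of their intervals overlap, but the order depends on gene length. Without division by length *Vdac2* was the highest, at 183 CPM, with 135 CPM for *Vdac1* and 98.8 CPM for *Vdac3*. *Vdac2*, the isoform known to hold BAK at mitochondria, had 38.3 FPKM against 35.3 FPKM for *Bak1*. Their intervals of 36.9 to 39.7 and 33.5 to 37.3 overlap. This nearness rests on exon lengths of 4769 and 2407 bases, where the longest transcripts have 2039 and 2387. Without division by length *Vdac2* and *Bak1* had 183 and 85.0 CPM.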
